A study of Mus musculus with 6 samples.

Results

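The genes described here are 10 markers of skeletal muscle and its precursors: the transcription factors Myf5, Myod1, Myog and Pax7, and the muscle structural genes Ttn, Myh3, Myh8, Acta1, Des and Actn2. They were chosen by gene symbol, with earlier results of these data known, and each matched 1 of the 46095 rows of a gene count table. The table comes from RNA sequencing of induced brown adipocytes from U-IRX3ov and control mice, with 3 libraries of each genotype. All mice had the C57BL/6 background and were 5 weeks old, and both genotypes were cultured in the same way. Cells of the stromal vascular fraction, which holds preadipocytes and the other non-adipocyte cells of the pad, were isolated from brown adipose tissue and grown to confluence. The induction took 8 days. The cocktail of the first 2 days held rosiglitazone, dexamethasone and the thyroid hormone T3 at 1 µM each, IBMX at 0.5 mM and insulin at 5 µg/mL, and for the next 6 days the cells kept insulin, T3 and rosiglitazone. The name U-IRX3ov gives overexpression of IRX3, but the sources used here do not give the promoter, the construct or the cells in which it is active. The question put to the data was how induced brown adipocytes of the U-IRX3ov genotype differed from control cells in these genes.

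Skeletal muscle is built by progenitors that carry PAX7 and then switch on the basic helix-loop-helix factors MYF5 and MYOD1. Myogenin (Myog) follows as the cells leave the cycle and fuse, and the sarcomere genes come after it, with embryonic and perinatal myosins before the adult ones. In mice, brown adipocytes of the interscapular pad and skeletal muscle share embryonic precursors that have expressed Myf5, and the regulator PRDM16 directs such cells towards brown fat.

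The start regions of the 5 genes that passed the test described below are shown because these genes did not all move the same way, with 4 higher and Acta1 lower in U-IRX3ov. Each line runs 5′ to 3′ from 250 bases before to 50 bases after the start site in RefSeq on GRCm38.p6, the assembly called mm10, and 9 of the 10 genes had an entry. Capitals mark matches to 3 motifs sought on both strands: the E-box CANNTG, which binds the MYOD1 family, the CArG box, which binds the serum response factor SRF, and the MEF2 consensus.
Des (chr1:75360042-75360341, plus strand): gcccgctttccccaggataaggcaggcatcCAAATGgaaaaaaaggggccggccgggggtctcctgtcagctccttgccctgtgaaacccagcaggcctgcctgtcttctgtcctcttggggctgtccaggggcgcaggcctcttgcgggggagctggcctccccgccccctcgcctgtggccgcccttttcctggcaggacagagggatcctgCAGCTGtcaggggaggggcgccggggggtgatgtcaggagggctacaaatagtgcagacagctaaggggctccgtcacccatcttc
Ttn (chr2:76982498-76982797, minus strand): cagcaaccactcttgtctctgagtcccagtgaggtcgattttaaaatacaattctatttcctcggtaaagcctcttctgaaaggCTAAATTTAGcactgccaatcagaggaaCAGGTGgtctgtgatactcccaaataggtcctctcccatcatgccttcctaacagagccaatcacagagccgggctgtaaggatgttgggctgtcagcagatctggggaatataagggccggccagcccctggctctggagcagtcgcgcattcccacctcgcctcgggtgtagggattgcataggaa
Acta1 (chr8:123894726-123895025, minus strand): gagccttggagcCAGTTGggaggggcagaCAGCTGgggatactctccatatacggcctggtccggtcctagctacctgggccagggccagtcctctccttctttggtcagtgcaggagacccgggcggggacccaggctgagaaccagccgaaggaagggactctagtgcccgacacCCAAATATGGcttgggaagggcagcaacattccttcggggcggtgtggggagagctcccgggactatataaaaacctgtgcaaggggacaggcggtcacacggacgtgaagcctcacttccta
Myh3 (chr11:67078050-67078349, plus strand): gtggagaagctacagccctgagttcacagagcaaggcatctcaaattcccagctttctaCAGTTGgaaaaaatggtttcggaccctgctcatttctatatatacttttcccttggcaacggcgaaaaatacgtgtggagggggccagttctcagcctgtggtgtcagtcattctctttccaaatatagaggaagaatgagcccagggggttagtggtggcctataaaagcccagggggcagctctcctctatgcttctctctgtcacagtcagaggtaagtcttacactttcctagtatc
Myh8 (chr11:67276874-67277173, plus strand): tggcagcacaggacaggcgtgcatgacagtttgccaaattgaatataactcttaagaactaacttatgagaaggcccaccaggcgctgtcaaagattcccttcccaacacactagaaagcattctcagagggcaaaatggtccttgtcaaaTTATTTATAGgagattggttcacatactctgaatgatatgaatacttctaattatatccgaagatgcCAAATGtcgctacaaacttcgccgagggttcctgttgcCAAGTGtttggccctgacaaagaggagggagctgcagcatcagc
The regions of Acta1, Des and Myh8 each held 2 E-boxes, and those of Ttn and Myh3 held 1 each. An E-box was present in 72.3% of the 32851 start regions of the same length in the table, so its presence did not set these genes apart. The CArG box was found in 1.63% of all start regions and, of the 9 entries, in Acta1, at base -73 from the start site. The MEF2 consensus occurred in 3.19% of all start regions and in those of Ttn (base -166) and Myh8 (base -99). Among the entries not shown, Myog had 2 E-boxes, Actn2 had 3, and Myf5 and Pax7 had none. None of these matches overlapped another motif in the 5 regions shown. A match of letters is a description and was not tested as a binding site.

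Library totals ran from 20094799 to 26755870 counts in U-IRX3ov and from 25371093 to 26573164 in control. A single count therefore stood for more in U-IRX3ov libraries 2 and 3 than in the others. Scaled to library size (CPM), 1 count was 0.0513 in U-IRX3ov library 2 and 0.0516 in U-IRX3ov library 3. In the other libraries it was 0.0365 to 0.0385. Irx3 itself had raw counts of 163, 123 and 114 in U-IRX3ov and of 131, 142 and 138 in control, with a log2 fold change of 0.27 ± 0.13 (SE) that did not pass (edgeR adjusted p = 0.112). Whether reads of the added copy are counted under this gene is not known. The cultures carried adipocyte transcripts at high level. Adipoq, the adipocyte hormone adiponectin, averaged 1350 ± 12.3 CPM (counts scaled to library size, with TMM factors) in U-IRX3ov and 1200 ± 37 CPM in control (SD, n = 3 each). The 4 myogenic factors together reached 0.385 to 0.671 CPM per U-IRX3ov library and 0.0742 to 0.146 CPM per control library. Fewer cells of a type and less RNA per cell cannot be told apart in such bulk libraries. The labels do not say whether libraries of a group came from separate animals or cultures, so p-values measure the spread between these libraries.

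Of the 10 genes, 5 had enough counts to be tested, and all 5 passed an adjusted p of 0.05 in edgeR's quasi-likelihood test. Des, Ttn, Myh3 and Myh8 rose in U-IRX3ov and Acta1 fell. Over all 14757 genes tested, 20.2% rose and 21.1% fell, or 41.3% in either direction, so a single call in this comparison is common. Myh8 passed the minimum through its U-IRX3ov libraries alone, and no control library reached the minimum, so its difference is in part a condition of being tested. Of the other 5, Myog, Actn2 and Myod1 had more counts in U-IRX3ov than in control, Pax7 had 1 count in each group and Myf5 had none.

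**Figure D1:**
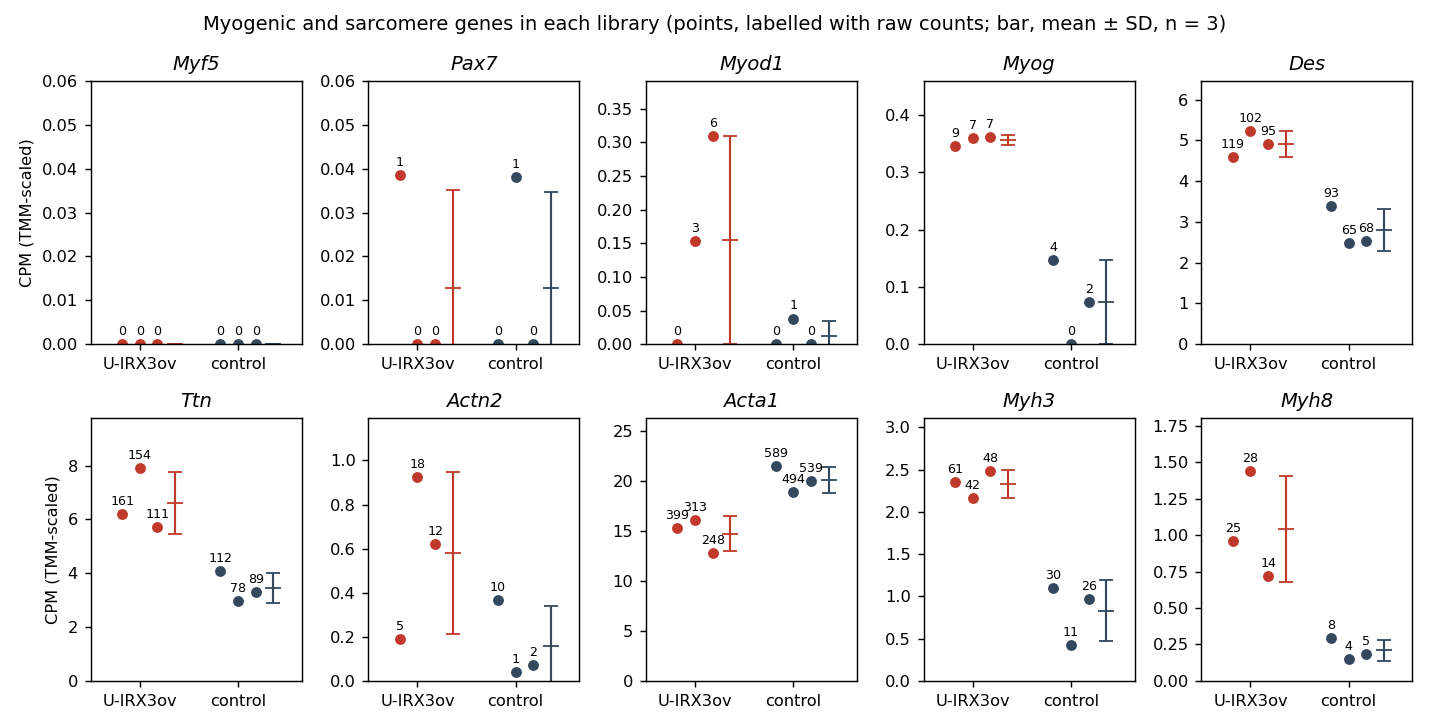
TMM-scaled CPM (vertical axis, linear, from 0, with its own range for each gene) of the 10 genes in the U-IRX3ov and control libraries; points are libraries labelled with their raw counts, and the bar beside them is the mean with its SD (n = 3). U-IRX3ov libraries lie above every control library for Myog, Des, Ttn, Myh3 and Myh8 and below every one for Acta1. The groups overlap for Actn2, Myod1, Pax7 and Myf5. Of all genes tested, 24.9% lay apart in the higher direction, 25.9% in the lower and 50.8% in either.

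Among the transcription factors, Myf5, which marks the shared precursors of muscle and brown fat, had a raw count of 0 in all 3 U-IRX3ov and all 3 control libraries. A count of 0 allows up to 0.0463 CPM over the U-IRX3ov libraries and up to 0.0373 CPM over the control libraries (3 counts per group, counting error only). Pax7, the factor of muscle satellite cells, had raw counts of 1, 0 and 0 in U-IRX3ov and of 0, 1 and 0 in control. Both genes were at or under the level that the depth can resolve in either genotype.

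Myod1, which commits cells to the muscle fate, had raw counts of 0, 3 and 6 in U-IRX3ov libraries 1, 2 and 3 and of 0, 1 and 0 in control. The groups overlapped at 0, and the U-IRX3ov counts came from libraries 2 and 3. The ratio of the summed counts, 9 in U-IRX3ov against 1 in control, was 11.2 after scaling, with an exact 95% counting interval of 1.55 to 490. Its log2 value was 3.48, against 2.41 without U-IRX3ov library 3 and 4.22 without U-IRX3ov library 1, and without control library 2 no control count was left. Without control library 1 or 3 it was 2.88 and 2.89. Myod1 did not reach the minimum for the main test. Without the filter on low counts the fit gave a log2 value of 3.11 ± 1.48 (SE) and an edgeR adjusted p of 0.124, short of the threshold.

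Myog, the factor of terminal muscle differentiation, had raw counts of 9, 7 and 7 in U-IRX3ov and of 4, 0 and 2 in control. In CPM this was 0.346, 0.359 and 0.362 in U-IRX3ov and 0.146, 0 and 0.0742 in control. Every U-IRX3ov library lay above every control library, a separation that 24.9% of all genes tested showed in that direction and 50.8% in either. The ratio of the summed counts, 23 in U-IRX3ov against 6 in control, was 4.76 after scaling (exact 95% counting interval 1.88 to 14.3). On the log2 scale it was 2.25, against 3.24 without control library 1 and 1.68 without control library 2. Myog was too low for the main test, and in the fit with no filter its log2 fold change of 2.18 ± 0.84 passed (edgeR adjusted p = 0.0407), where 12% of 24947 genes were called higher. For the members with a main test, that fit gave smaller p-values at similar SEs. Ttn had an edgeR p of 3.99e-09 (SE 0.158) with no filter, against 4.39e-06 (SE 0.161) in the main test. Calls of the 2 fits are therefore not on the same footing. The Myog call held without control library 1 (adjusted p = 0.0242) and was lost without any other single library (adjusted p = 0.0789 to 0.185). The means were 0.356 ± 0.00834 CPM in U-IRX3ov and 0.0734 ± 0.073 CPM in control (SD, n = 3 each), and the small SD in U-IRX3ov is that of counts of 7 to 9.

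Des encodes desmin, the intermediate filament that ties sarcomeres to each other and is also made in smooth muscle. It had 4.58, 5.23 and 4.91 CPM in U-IRX3ov and 3.4, 2.48 and 2.52 CPM in control. The U-IRX3ov libraries were all higher, and control library 1 was nearest to them. Des rose 1.74-fold, a log2 fold change of 0.80 ± 0.17 (SE, edgeR adjusted p = 0.000415). Its annotated antisense neighbour Gm15179, which overlaps 220 bases of Des exons, had at most 4 counts in any library. Vim encodes vimentin, the intermediate filament of mesenchymal cells. It went the other way, with 1420 ± 9.65 CPM in U-IRX3ov and 1660 ± 21.5 CPM in control (log2 -0.23 ± 0.03, adjusted p = 1.53e-06). Per 1000 Vim counts there were 3.2, 3.7 and 3.48 Des counts in U-IRX3ov and 2.07, 1.49 and 1.5 in control.

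Ttn encodes titin, the giant protein that spans the sarcomere from Z disc to M line and acts as its spring. It had 6.19, 7.9 and 5.73 CPM in U-IRX3ov and 4.09, 2.98 and 3.3 CPM in control. No control library reached the lowest U-IRX3ov library. Ttn rose 1.9-fold (log2 0.93 ± 0.16, edgeR adjusted p = 2.94e-05). Because its longest coding transcript is 107 kb, its 426 counts in U-IRX3ov and 279 in control come to 0.0619 ± 0.0107 CPM per kb in U-IRX3ov and 0.0324 ± 0.00534 CPM per kb in control.

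Actn2 encodes the muscle alpha-actinin of the Z disc, where titin and thin filaments are anchored. Its raw counts were 5, 18 and 12 in U-IRX3ov and 10, 1 and 2 in control. The groups overlapped, because control library 1 had more counts than U-IRX3ov library 1. The ratio of the summed counts, 35 in U-IRX3ov against 13 in control, was 3.34 after scaling (exact 95% counting interval 1.73 to 6.88), which treats reads as the only source of error. Actn2 was too low for the main test, and with no filter its log2 fold change of 1.78 ± 0.63 passed (edgeR adjusted p = 0.0216). As given under Myog, p-values of that fit ran smaller than those of the main test. The Actn2 call depended on single libraries. With no filter, Actn2 passed without control library 1 (adjusted p = 0.0017) and without U-IRX3ov library 1 (0.00449), but not without any of the other 4 libraries (0.0755 to 0.309). On the ratio of summed counts the log2 value was 1.74 with all libraries and 3.26 without control library 1.

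Acta1 encodes skeletal muscle alpha-actin, the thin filament of the sarcomere, and it was the most abundant of the 10 genes and the one that fell. It had 15.3, 16.1 and 12.8 CPM in U-IRX3ov and 21.5, 18.9 and 20 CPM in control. All U-IRX3ov libraries were below all control libraries, as for 25.9% of all genes tested. The level in U-IRX3ov was 0.733 of that in control (log2 -0.45 ± 0.09, edgeR adjusted p = 0.000167). Acta2, the smooth muscle alpha-actin that activated fibroblasts also make, fell in the same libraries, to 1820 ± 111 CPM in U-IRX3ov, against 2950 ± 63.1 CPM in control (log2 -0.70 ± 0.04, adjusted p = 5.24e-14). For each 1000 counts of Acta2 there were 7.89, 9.02 and 7.39 counts of Acta1 in U-IRX3ov and 7.25, 6.55 and 6.66 in control. The actin genes are close relatives, so stretches that a read could not assign were sought among annotated transcripts. Of the 50-base stretches of the longest Acta1 transcript 2.22% recur exactly in another gene, the largest shares being with Gm47692 (2.22%) and Actb (2%). Reads with mismatches were not modelled, and the part of such reads in the Acta1 counts was not tested. Actc1, the cardiac actin that embryonic skeletal muscle also uses, had 0.912 ± 0.367 CPM in U-IRX3ov and 0.471 ± 0.237 CPM in control and did not pass (log2 0.93 ± 0.42, adjusted p = 0.0824).

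Myh3 encodes the embryonic myosin heavy chain, the first skeletal myosin of developing and regenerating fibres. It had 2.35, 2.16 and 2.48 CPM in U-IRX3ov and 1.1, 0.42 and 0.965 CPM in control. The lowest U-IRX3ov library was above the highest control library, and control library 2 was the lowest of all 6. Myh3 rose 2.79-fold (log2 1.48 ± 0.30, edgeR adjusted p = 0.000231).

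Myh8 encodes the perinatal myosin heavy chain, which follows the embryonic form around birth. Its raw counts were 25, 28 and 14 in U-IRX3ov and 8, 4 and 5 in control, which is 0.961, 1.44 and 0.723 CPM in U-IRX3ov and 0.292, 0.153 and 0.186 CPM in control. The groups did not overlap, and U-IRX3ov library 3 was nearest to control. Myh8 rose 4.82-fold (log2 2.27 ± 0.46, edgeR adjusted p = 0.000191), the largest of the 5 tested changes and the one with fewest counts. No control library reached the minimum for testing. The size and rank of this change are therefore in part a condition of being tested.

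Both genes lie in the myosin cluster of chromosome 11, Myh3 at 67078300 to 67102291 and Myh8 at 67277124 to 67308634 of mm10 on the plus strand, and the adult fast myosins lie between them. Myh1, the adult IIx myosin, had 3.35, 5.59 and 2.89 CPM in U-IRX3ov and 1.61, 1.18 and 1.15 CPM in control and rose 2.98-fold (log2 1.57 ± 0.25, adjusted p = 1.05e-05). Myh2, the adult IIa myosin, did not pass, with 0.419 ± 0.297 CPM in U-IRX3ov and 0.821 ± 0.191 CPM in control (log2 -0.90 ± 0.45, adjusted p = 0.119). Myh4, the adult IIb myosin, had raw counts of 2, 2 and 0 in U-IRX3ov and 0 in each control library. Per kb of the longest coding transcript, Myh1 reached 0.649 ± 0.238 CPM in U-IRX3ov and 0.216 ± 0.0418 in control, Myh3 0.386 ± 0.027 in U-IRX3ov and 0.137 ± 0.0594 in control, and Myh8 0.169 ± 0.0591 in U-IRX3ov and 0.0342 ± 0.0118 in control. The counts of this cluster are uncertain where copies share sequence. Of the 50-base stretches of Myh8 21.4% recur in another gene, with 11.8% in Myh2, against 4.81% for Myh3 and 32.1% for Myh1. The sources used here do not say how reads with several matches were counted.

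**Figure D2:**
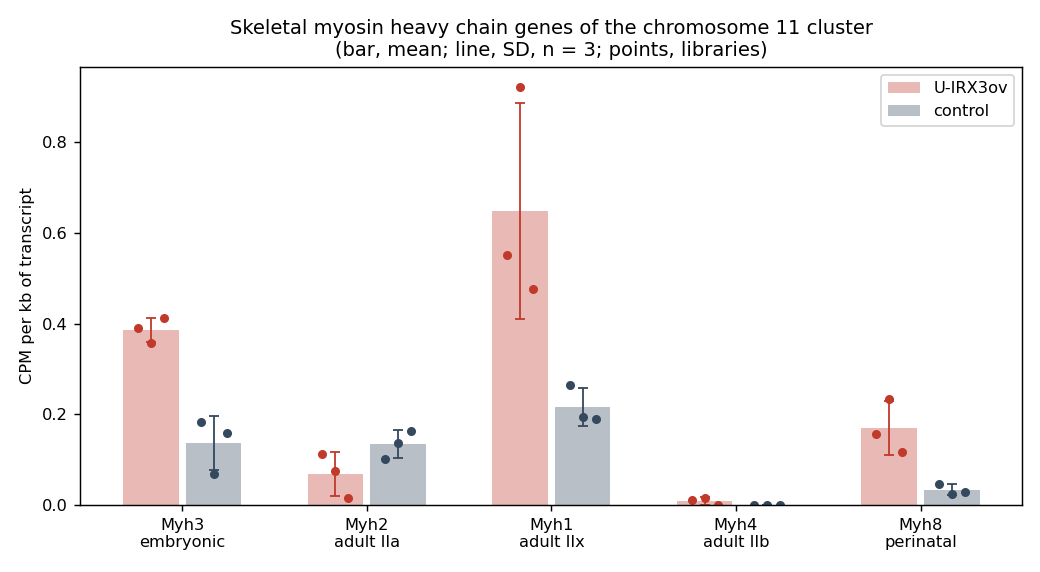
CPM per kb of the longest coding transcript (vertical axis, linear, from 0) for 5 skeletal myosin heavy chain genes in their order along chromosome 11, U-IRX3ov left and control right; bars are means, lines the SD (n = 3) and points libraries. Myh3, Myh1 and Myh8 show U-IRX3ov above control in all libraries, Myh2 shows overlapping groups and Myh4 had at most 2 counts in any library. Such a separation was seen in 24.9% of all genes tested in the higher direction and in 50.8% in either. For Myh8 no control library reached the minimum for testing.

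Set in order per kb of transcript, the levels in U-IRX3ov ran from Acta1 (10.2 ± 1.18 CPM per kb) over Des (1.62 ± 0.109), Myh3 (0.386 ± 0.027), Myog (0.238 ± 0.00558), Actn2 (0.192 ± 0.122), Myh8 (0.169 ± 0.0591), Myod1 (0.0831 ± 0.0833), Ttn (0.0619 ± 0.0107) and Pax7 (0.00219 ± 0.00379) to Myf5 at 0. Acta1, Des and Myh3 stood apart from their neighbours by more than their SD, while the SDs of Actn2 overlapped those of Myog and Myh8, and those of Myod1 overlapped Myh8 and Ttn. In control the order began in the same way, with Acta1 at 13.9 ± 0.915, Des at 0.925 ± 0.17 and Myh3 at 0.137 ± 0.0594 CPM per kb. Actn2 (0.0528 ± 0.0595), Myog (0.0491 ± 0.0489), Myh8 (0.0342 ± 0.0118) and Ttn (0.0324 ± 0.00534) came next in control and overlapped each other, and the SDs of Myh3 overlapped those of Actn2 and Myog. For scale, Ucp1, the uncoupling protein of brown fat, had 146 ± 14.7 CPM per kb in U-IRX3ov and 12.1 ± 0.727 in control.

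The other genes of the muscle programme were taken from lists of other sarcomere genes, of excitation and energy genes and of myogenic regulators. Of 46 other sarcomere genes 23 were tested, of which 7 rose and 2 fell, beside a background of 20.2% and 21.1%. Of those 23, 8 reached the minimum in more U-IRX3ov than control libraries. Among the 12 that reached it in all 6 libraries, 3 rose and 2 fell. The median log2 fold change was 0.46 over the 23 and -0.12 over these 12, against -0.0047 over all genes tested, so its sign depended on the genes low in control. Of the 7 that rose, 4 (Mybph, Tnnt3, Tnnc1 and Mybpc1) were among the 8, and their difference is in part a condition of being tested. Mybph, a myosin-binding protein, had 0.912 ± 0.256 CPM in U-IRX3ov and 0.173 ± 0.0743 CPM in control (log2 2.36 ± 0.48, adjusted p = 0.000232). Of its 2329 exon bases, 1162 overlap exons of Adora1 on the other strand. The part of antisense reads in the Mybph counts was not tested. The fast troponin Tnnt3 (log2 2.01 ± 0.46), the slow and cardiac troponin C Tnnc1 (1.41 ± 0.40), Mybpc1 (1.60 ± 0.55) and the fast light chain Mylpf (0.95 ± 0.31) also rose, with control levels of 0.0371 CPM (Mybpc1) to 1.24 CPM (Mylpf) per library. These 4 were named after their values were seen. The 2 that fell were more abundant than Mybph and these 4, but less abundant than Fhl1, which rose. Flnc, a filamin that muscle and activated fibroblasts both make, had 143 ± 4.5 CPM in U-IRX3ov and 216 ± 4.49 CPM in control (log2 -0.59 ± 0.04, adjusted p = 6.08e-13). Myom1, the M-band protein myomesin, had 5.09 ± 0.735 CPM in U-IRX3ov and 9.94 ± 0.453 CPM in control (log2 -0.95 ± 0.13, adjusted p = 5.27e-07). Fhl1, a LIM protein and the most abundant gene of this list, had 306 ± 14 CPM in U-IRX3ov and 274 ± 5.42 CPM in control. It rose by 0.16 ± 0.04, and Ldb3 of the Z disc did not pass (-0.06 ± 0.11, adjusted p = 0.682).

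Of 28 excitation and energy genes 13 were tested, with 2 higher and 2 lower (15.4% each, beside 20.2% and 21.1% of all genes tested). The median log2 fold change was 0.11 over the 13 and -0.05 over the 6 past the minimum in all libraries. Of the 13, 5 reached the minimum in more U-IRX3ov than control libraries, and both genes that rose were among them. Atp2a1, the calcium pump of fast muscle, had 1.12, 2.51 and 2.07 CPM in U-IRX3ov and 0.511, 0.191 and 0.186 CPM in control (log2 2.63 ± 0.42, adjusted p = 9.42e-06). Mb, the oxygen-binding myoglobin, had raw counts of 19, 20 and 11 in U-IRX3ov and of 4, 2 and 0 in control (log2 3.29 ± 0.63, adjusted p = 0.000101). Both overlap an exon of a gene on the other strand (Rabep2 and Apol6), with 201 to 313 counts of Rabep2 and 650 to 923 of Apol6 in U-IRX3ov, and 319 to 340 of Rabep2 and 898 to 1041 of Apol6 in control. The part of such antisense reads was not tested. Jph2, a junctional protein of the calcium store (log2 -0.75 ± 0.08), and the dystrophin gene Dmd (-0.29 ± 0.06) fell. Ckm, the muscle creatine kinase that is among the most abundant transcripts of adult muscle, had 2, 0 and 1 counts in U-IRX3ov and none in control. Pvalb and Myl2 had no count in any library. Of these adult fibre genes none reached the minimum, unlike Myh1 and Atp2a1.

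Of 20 other myogenic regulators 14 were tested, with 3 higher (21.4%) and 4 lower (28.6%) and a median log2 fold change of -0.04. These shares lie near the 20.2% and 21.1% of all genes tested. Met, the hepatocyte growth factor receptor of migrating muscle precursors (0.30 ± 0.05), and the transcription factor Mef2d (0.23 ± 0.04) rose. The satellite cell receptor Megf10 (-0.71 ± 0.09) and the transcriptional cofactor Eya2 (-0.96 ± 0.15) fell. Myf6, the remaining member of the MYOD1 family, had raw counts of 0, 1 and 0 in U-IRX3ov and 3, 0 and 0 in control. Tmem8c, the fusion protein myomaker, had raw counts of 5, 3 and 13 in U-IRX3ov and 3, 0 and 2 in control.

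**Figure D3:**
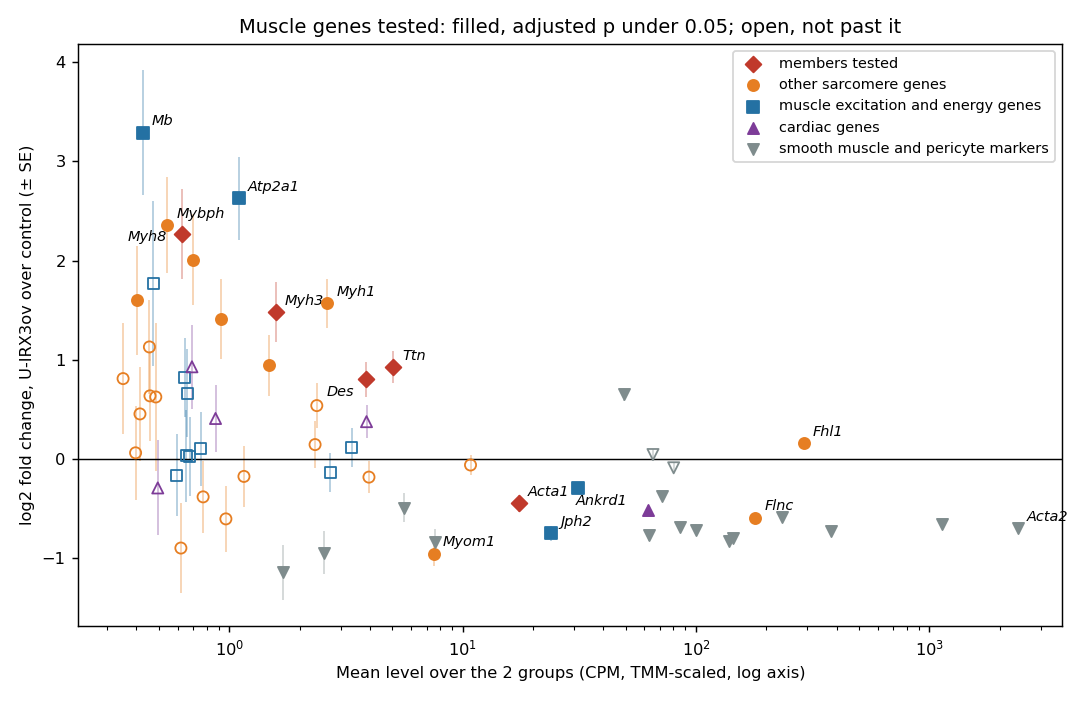
log2 fold change of U-IRX3ov over control with its SE (vertical axis) against the mean CPM of both groups (horizontal axis, log scale) for the tested genes of the muscle lists; filled symbols passed an adjusted p of 0.05 and open ones did not. The skeletal genes that rose lie mostly below 10 CPM, including Ttn, Des, Myh3, Myh8, Mb and Atp2a1, while Acta1, Flnc, Jph2, Ankrd1 and Acta2 lie to the right and below 0. Myom1 lies below 0 within the lower range too, with 5.09 CPM in U-IRX3ov and 9.94 CPM in control. Fhl1, the most abundant of the other sarcomere genes, lies just above 0.

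Smooth muscle and non-muscle contractile genes were mostly lower in U-IRX3ov. The counts in the lists that follow stand beside 20.2% higher, 21.1% lower and 41.3% in either direction over all genes tested. Of 17 tested smooth muscle and pericyte markers 14 fell and 1 rose, with a median log2 fold change of -0.70 and a summed level of 3690 to 4080 CPM in U-IRX3ov and 5910 to 6220 CPM in control. Of the 10 non-muscle counterparts of the actin, actinin, myosin and filament genes 7 fell, with Actn1 at -0.68 ± 0.04 and Myh9 at -0.48 ± 0.04. Of 12 cardiac genes 5 were tested, with a median log2 fold change of 0.38, and 4 did not pass. Those 4 were Actc1 (0.93), Tnnt2 (0.41), Myl4 (0.38) and Tnni3 (-0.29), while the stretch-responsive gene Ankrd1 fell (-0.52 ± 0.06). Myh6 and Nkx2-5, which define heart muscle, had no count in any library. Markers of the other cells of the pad also shifted. Preadipocyte and fibroblast markers summed to 1770 to 1880 CPM in U-IRX3ov and 3200 to 3300 CPM in control, with 8 of 9 tested members lower. Leukocyte markers summed to 60 to 78.7 CPM in U-IRX3ov and 190 to 221 CPM in control, with 6 of 6 tested members lower. Endothelial markers rose in 4 of 6, with sums of 38.6 to 44 CPM in U-IRX3ov and 19.2 to 22.8 CPM in control. Neural and Schwann cell markers rose in 3 of 5 tested and fell in 1, with sums of 34.8 to 37.9 CPM in U-IRX3ov and 38.4 to 42 CPM in control. Without the most abundant of them, Tubb3, which was the one that fell, the sums were 18.3 to 21.6 CPM in U-IRX3ov and 8.95 to 9.44 CPM in control. General adipocyte markers rose in 7 of 8, with sums of 35000 to 36400 CPM in U-IRX3ov and 27600 to 28300 CPM in control. Brown adipocyte markers rose in 8 of 10 and fell in 2, with sums of 751 to 850 CPM in U-IRX3ov and 310 to 321 CPM in control. The part of these shifts in cell markers in the changes of the muscle genes was not tested.

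The tested genes whose log2 CPM over the 6 libraries was most like Des, Acta1 and Myh3, each with a mean of at least 1 CPM, were Zfp729b, Mrpl55 and Acrbp for Des (Pearson r 0.994 to 0.996), Zfand2a, Tbc1d5 and Dlg5 for Acta1 (0.993 to 0.995) and Peli2, Carhsp1 and Wiz for Myh3 (0.992 to 0.995). None of them belongs to a muscle list. The 6 points fall in 2 groups, and 201 (Myh3) to 401 (Des) of the genes tested, or 1.36% to 2.72%, had an r over 0.95 with these genes.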

How the data were processed

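For 6 libraries the authors deposited read counts by gene symbol, as whole numbers without normalization. HISAT2 2.0.4 and mm10 are named in the submitters' processing notes. Which program and annotation made the counts, whether strand was used and how reads with several matches were treated are unknown here. Genes were grouped by the genotype label. Genes low in counts were removed with filterByExpr of edgeR (a minimum of 10 counts at the median depth, 0.389 CPM, in 3 libraries), which left 14757 of 24947 genes with a count. Each adjusted p comes from edgeR 4.0.16 (R 4.3.3), with TMM factors, genotype as the sole term, robust quasi-likelihood F tests and the Benjamini-Hochberg method across every tested gene. The SE is the log2 fold change divided by the square root of F. For genes without a test, summed counts were compared with exact (Clopper-Pearson) 95% intervals, which cover counting error only, as do the limits for a count of 0. With 3 libraries a group, the two-sided exact permutation test has 0.1 as its smallest p, and it gave that value for Myog, Des, Ttn, Myh3, Myh8 and Acta1. In each of these genes the groups did not overlap, as in 50.8% of all genes tested.

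Coordinates, transcript lengths and 50-base stretches come from GENCODE M21 (GRCm38, the assembly of mm10), and start regions from RefSeq. Of the 190 listed genes 188 matched by symbol. The members and the 12 other gene lists were chosen with earlier results of these data known. Genes named from those lists were the 4 with the highest mean CPM and up to 4 past the threshold with the smallest p in each, some of which are not reported here, and others were chosen by role (Myh2, Myh4, Myf6, Tmem8c, Ckm, Pvalb, Myl2, Myh6 and Nkx2-5) or after their values were seen (Tnnt3, Tnnc1, Mybpc1, Mylpf and Tnni3). Fits were tested on simulated counts. The alternatives changed the scaling (upper quartile or DESeq2 size factors), the filter or the test (DESeq2 1.42.0, limma-voom of limma 3.58.1), or used a replicate block, an adjusted p of 0.01 or 1 library fewer.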

Additional observations from a re-analysis of the deposited data

How the results depend on the processing

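Des, Ttn, Myh3, Myh8 and Acta1 kept their direction and passed an adjusted p of 0.05 under each alternative in which they were tested. Myh8 reached the minimum of the main filter through its U-IRX3ov libraries alone, so its call remains in part a condition of being tested. Over 13 alternatives the log2 fold change ran from 0.72 to 0.97 for Des, from 0.79 to 1.07 for Ttn, from 1.17 to 1.74 for Myh3 and from -0.51 to -0.36 for Acta1, and over 12 from 1.99 to 2.58 for Myh8, which a filter of 1 CPM in 3 libraries removed. The largest adjusted p was 0.00344 for Des, 0.000965 for Ttn, 0.0019 for Myh3, 0.00363 for Acta1 and 0.00453 for Myh8. The number of the 10 genes called was 5, and 7 with no filter (Myog and Actn2 added) and 4 with the filter of 1 CPM. It was 6 without control library 1 or without U-IRX3ov library 1 (Actn2 added). With 1 library fewer the filter was run again and asked for fewer libraries, so more genes were tested. Genes called were 5429 of 15050 without control library 1 and 5629 of 15113 without U-IRX3ov library 1, against 6098 of 14757. In the full set Actn2 reached the minimum in 2 U-IRX3ov libraries and 0 control libraries. Its added call is therefore in part a condition of being tested. Leaving out 1 library moved the log2 ratio of summed counts from 1.21 to 3.26 for Actn2, from 1.68 to 3.24 for Myog and, in the 5 fits that left a control count, from 2.41 to 4.22 for Myod1. The DESeq2, limma-voom, block and 1 CPM alternatives gave no value for Myf5, Pax7, Myod1, Myog and Actn2, and Myf5 and Pax7 gave no ratio. In fits with no filter that also left out 1 library, chosen after seeing the data, the log2 fold change ran from 1.64 to 3.08 for Myog, which passed in 1 of 6, from 1.26 to 3.21 for Actn2, which passed in 2 of 6, and from 2.1 to 3.74 for Myod1, which did not pass. With no filter 11 of the 45 other sarcomere genes with a count rose, in place of 7 of 23 tested. Of the excitation and energy genes 5 of 27 rose, in place of 2 of 13. Over all genes 12% of 24947 rose and 12.5% fell with no filter, against 20.2% and 21.1% of 14757 in the main test. The 7 calls among the 10 genes with no filter stand beside the same shares. For the 5 genes of the main test, the fit with no filter gave smaller p-values at similar SEs. Its 7 calls therefore differ from the main 5 in more than the filter. Same-numbered libraries of the 2 groups deviated together only weakly (r = 0.0222, 0.0745 and 0.0514), so the numbers were not taken as pairs. With the replicate block 6173 genes were called in place of 6098, and the block left the 5 calls in place, with log2 fold changes of 0.80 for Des, 0.92 for Ttn, 1.51 for Myh3, 2.25 for Myh8 and -0.45 for Acta1. Each library correlated best with its own number in the other group, which is a hint from the data and not from the design. The depth limits what can be said of genes under about 0.389 CPM.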
